A study of Rattus norvegicus with 18 samples.

Results

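Glycolysis splits glucose into pyruvate in the cytosol, and the genes described here encode its transporters, its enzymes and the steps that feed it or take its products away. Of 35 such genes listed, 33 had a mean of at least 1 FPKM (fragments mapped, scaled to transcript length and library size) over the 6 groups, among 10545 genes at that level and 17312 genes in the table. The list was drawn up by function, but with earlier results of these data known, so its counts beside those of all genes are descriptive. It holds glucose transporters, glycolytic enzymes, lactate transporters, pyruvate dehydrogenase regulators, glycogen enzymes and enzymes of the pentose phosphate branch. Tpi1, which encodes triosephosphate isomerase, and Pfkfb1, an isoform of the bifunctional regulator of phosphofructokinase, did not reach the minimum, with means of 0.091 and 0.560 FPKM. Tpi1 was listed at 0 in vehicle cultures after 48 h although glycolytic cells use this enzyme in general, so its listing is not read as a level. The lowest member inside the minimum was Pfkfb4, at a mean of 4.35 FPKM.

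The cells were neonatal rat ventricular myocytes, primary heart muscle cells cultured from the hearts of 2-day-old Sprague-Dawley pups, with no genetic change named. All cultures were plated in medium with 10% serum and then kept without serum, with ITS supplement, for 24 h before pretreatment. The groups were cultures pretreated for 24 h with SR9009, an agonist of the nuclear receptors REV-ERB, and then given phenylephrine (PE) for 0, 4 or 48 h, and cultures pretreated with vehicle and given PE for the same times. PE activates alpha-1 adrenergic receptors and is a standard stimulus for hypertrophic growth of these cells. The design asks how the response to PE differs with and without SR9009. Each of the 6 groups had 3 libraries, 18 in all, but the table gives 1 FPKM per gene and group with a lower and an upper bound set by the authors' software. No culture without PE was taken at 4 or 48 h, so the effect of PE and that of time in culture cannot be told apart.

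The heart makes several proteins for most steps of this pathway, from separate genes. Pfkm, Pgam2, Eno3 and Pygm are the muscle forms of phosphofructokinase, phosphoglycerate mutase, enolase and glycogen phosphorylase, and the other forms are used more widely, in liver, brain, blood cells or growing cells. Adult heart muscle is also known for Slc2a4, the insulin-responsive glucose transporter, for Ldhb, the lactate dehydrogenase subunit common in oxidative tissue, and for drawing most of its energy from fatty acids, whereas fetal and hypertrophied hearts use more glucose. Hexokinase, phosphofructokinase and pyruvate kinase catalyse the irreversible steps, and pyruvate dehydrogenase, held in check by its kinases, decides how much pyruvate enters the mitochondria.

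Differences are given on the scale of log2(FPKM + 1). A gene met the size rule where this difference was at least 1 in either direction and the widest range allowed by the authors' bounds of the groups compared left out 0. There is no value per library, so no test, SD or p-value could be given, and the differences have no replicate check. The bounds lay a median of 14.8% from the value for the 33 genes, and the widest lay 25.4% away. The number of reads per library is unknown. In bulk cultures, fewer cells of a type and less RNA per cell cannot be told apart, in any of the values that follow.

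Summed over the 33 genes, FPKM came to 8728, 12368 and 12608.5 at 0, 4 and 48 h in SR9009 cultures, and to 9386, 13179 and 13542 in vehicle cultures. These sums were 1.425%, 1.845% and 1.920% of all FPKM with a usable value in SR9009 cultures and 1.541%, 1.885% and 1.907% in vehicle cultures. Genes marked as too deep to estimate, 3 to 8 per group and not the same in each, are missing from that total. Both arms thus had a larger share of the usable FPKM in these genes after PE than at 0 h, and at 48 h the shares of the arms were close. These are not shares of all RNA. Gapdh alone, a glycolytic dehydrogenase often used as a reference transcript, made up 22.8% to 26.7% of the sum.

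In vehicle cultures, 9 of the 33 genes (27.3%) met the size rule between 48 h of PE and 0 h, with Pfkl, Pfkp, Pgam1, Eno1 and Slc16a3 higher and Pfkm, Aldoc, Pgam2 and Pygb lower. Over all 10416 genes compared, 8.82% met it, 4.87% higher and 3.96% lower. With a pseudocount of 0.1 in place of 1 that share was 11.4%, while 9 of the 33 genes still met the rule. The 33 genes had a median of 93.4 to 134 FPKM by group, and all genes were taken from a mean of 1 FPKM. Here and below, the shares of all genes were not matched to the 33 in level. The split of 5 higher to 4 lower was 4 to 5 after rescaling to equal FPKM sums or quantile normalization, where Eno1 no longer met the rule and Pdk2 met it. In SR9009 cultures 3 genes met it, Pgam2, Eno3 and Slc16a3, all higher, against 2.42% of all genes in either direction and 1.26% higher. Of the 9 genes in vehicle cultures, Slc16a3 met the rule in the same direction with SR9009, Pgam2 met it in the opposite direction, and the other 7 did not meet it. The median difference of the 33 genes was 0.39 in SR9009 cultures and 0.30 in vehicle cultures, against -0.03 and 0.01 over all genes.

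**Figure D1:**
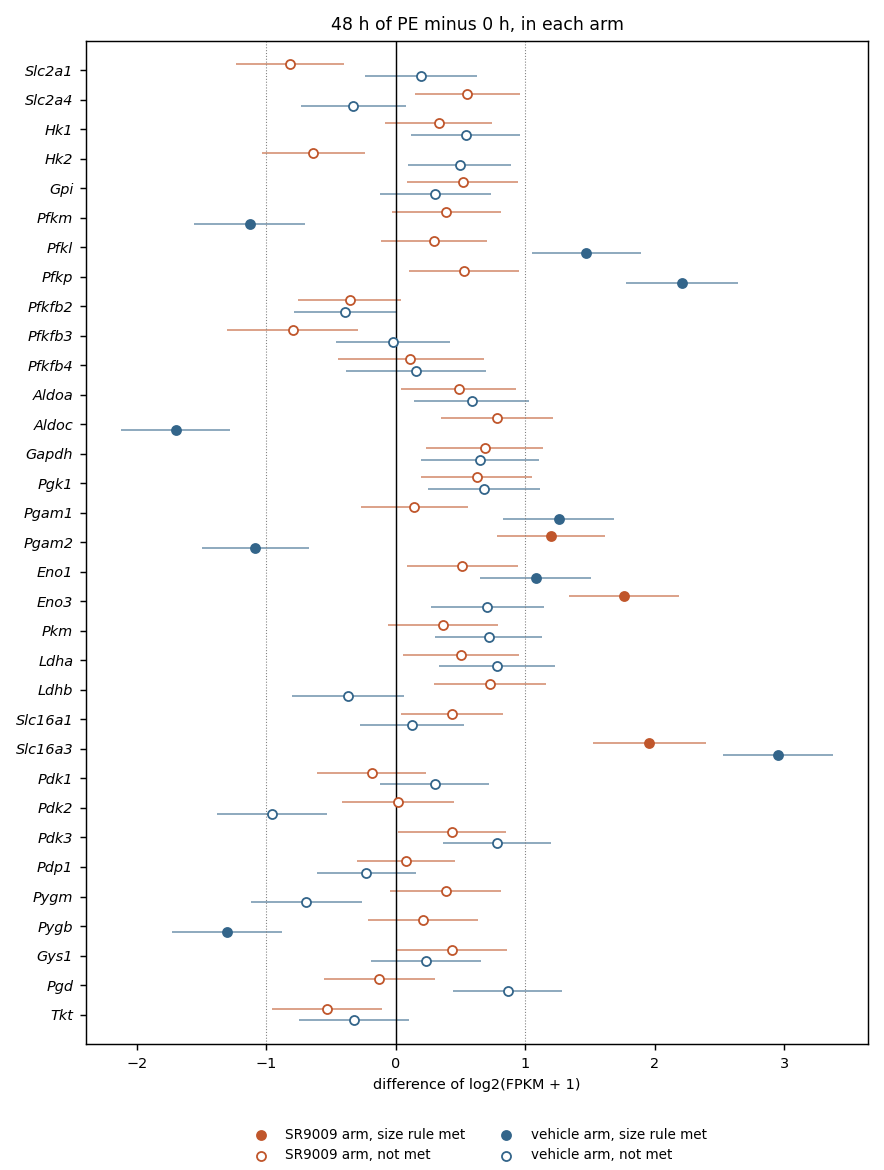
Difference of log2(FPKM + 1) between 48 h of PE and 0 h for each of the 33 genes (rows), in SR9009 cultures and in vehicle cultures. Points are differences, lines the widest range allowed by the authors' bounds, and filled points met the size rule. Pgam2 is filled on opposite sides of 0 in the 2 arms, at 1.20 with SR9009 and at -1.08 with vehicle.

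The change of the PE response with SR9009 is the 48 h difference in SR9009 cultures minus that in vehicle cultures. It met the size rule for 12 genes (36.4%), against 9.05% of all 10394 genes compared. Aldoc, Pgam2, Pfkm, Pygb, Ldhb, Pygm and Eno3 had the higher 48 h difference in SR9009 cultures. Pfkp, Pfkl, Hk2, Pgam1 and Slc2a1 had the lower one. Over all genes, 3.71% met the rule in the first direction and 5.34% in the second. The split of 7 to 5 was 9 to 3 after rescaling the groups to equal FPKM sums or quantile normalization, and 8 to 4 after centring on the median difference. At 4 h the responses were smaller in number. In SR9009 cultures 3 genes met the rule, with Hk2 and Slc16a3 higher and Aldoc lower, against 4.48% of all genes, 1.83% higher and 2.65% lower. In vehicle cultures Hk2, Slc16a1 and Slc16a3 met it, all higher, against 5.08% of all genes, 2.75% higher and 2.32% lower. In all, 16 of the 33 genes met the rule in at least 1 of the 8 comparisons and 17 in none, against 17.2% in at least 1 over the 10385 genes compared in all 8.

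Glucose enters heart cells through Slc2a1 (GLUT1), the transporter that works without insulin, and Slc2a4 (GLUT4). Slc2a1, at chr5:138154680-138182897 of rn6, had 88.8, 56.5 and 49.9 FPKM at 0, 4 and 48 h in SR9009 cultures, and 65.9, 44.1 and 75.4 FPKM in vehicle cultures. Its level was thus lower after 48 h of PE than at 0 h with SR9009 and somewhat higher with vehicle. The 48 h difference was -0.82 (range -1.24 to -0.40) in SR9009 cultures and 0.19 in vehicle cultures, and the change between the arms was -1.01 (range -1.86 to -0.16). That change did not meet the rule under 3 other scalings, at -0.89 to -0.98. Slc2a4 had 39.8, 44.3 and 58.9 FPKM in SR9009 cultures, against 69.8, 71.6 and 55.3 FPKM in vehicle cultures. It met the rule in no comparison as deposited, and its change of the 48 h response did after rescaling to equal sums, at 1.00, and quantile normalization, at 1.05. As a share of both transporters, Slc2a1 held 69.1%, 56.0% and 45.9% in SR9009 cultures and 48.6%, 38.1% and 57.7% in vehicle cultures. The range of the share at 0 h, 62.5% to 74.9% with SR9009, lay above the 41.1% to 56.1% with vehicle.

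Hexokinase traps glucose as glucose 6-phosphate. Hk1, the widely used form, held most of the hexokinase FPKM, with 121, 164 and 152 in SR9009 cultures and 121, 146 and 177 in vehicle cultures. Hk2, the form of insulin-responsive muscle, at chr4:113560880-113609897, had 20.0, 47.1 and 12.5 FPKM in SR9009 cultures and 16.3, 44.6 and 23.3 FPKM in vehicle cultures. In both arms its highest level was at 4 h. The 4 h difference was 1.20 (range 0.79 to 1.61) with SR9009 and 1.40 (range 0.98 to 1.81) with vehicle. After 48 h the Hk2 difference was -0.64 with SR9009 and 0.49 with vehicle, and the change between the arms was -1.13 (range -1.93 to -0.33). Hk2 held 7.58% of hexokinase FPKM at 48 h with SR9009, against 14.2% at 0 h in the same arm. Gpi, which converts glucose 6-phosphate to fructose 6-phosphate, lay between 264 and 397 FPKM in the 6 groups and met the rule in no comparison.

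Phosphofructokinase commits the sugar to glycolysis, and its isoforms had the largest share differences of the families compared between 48 h and 0 h with vehicle, and between the arms at 48 h, but not between 48 h and 0 h with SR9009. Pfkm, the muscle form, at chr7:139698148-139722132, had 104, 107 and 136 FPKM in SR9009 cultures and 142, 145 and 64.5 FPKM in vehicle cultures. Pfkp, the platelet form, at chr17:68510765-68574387, had 79.7, 140.4 and 115 FPKM in SR9009 cultures and 81.3, 159 and 380.4 FPKM in vehicle cultures. Pfkl, the liver form, at chr20:11393887-11415880, had 26.8, 29.8 and 33.1 FPKM in SR9009 cultures and 22.7, 24.7 and 64.8 FPKM in vehicle cultures. The vehicle group at 48 h stood alone: it had the lowest Pfkm and the highest Pfkp and Pfkl of the 6 groups. The vehicle 48 h differences were -1.13 (range -1.56 to -0.70) for Pfkm, 2.21 (range 1.78 to 2.64) for Pfkp and 1.47 (range 1.05 to 1.89) for Pfkl. With SR9009 they were 0.39, 0.53 and 0.29, none of which met the rule. Pfkm had the largest share at 0 h in both arms, with 49.4% of the FPKM of the 3 forms in SR9009 cultures and 57.8% in vehicle cultures. After 48 h of PE, Pfkm held 47.9% (range 40.6% to 55.3%) in SR9009 cultures and 12.7% (range 9.68% to 16.4%) in vehicle cultures. Pfkp held 40.5% (range 33.6% to 47.7%) in SR9009 cultures and 74.6% (range 68.5% to 79.9%) in vehicle cultures. The exchange in vehicle cultures was not one for one. Summed over the 3 forms, FPKM came to 210.4, 277 and 285 in SR9009 cultures and to 246, 329 and 509.7 in vehicle cultures. At 4 h Pfkp held 50.7% with SR9009 and 48.3% with vehicle, while Pfkm differed from 0 h by 0.04 and 0.03.

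The Pfkfb genes encode the enzyme that makes and removes the sugar bisphosphate activating phosphofructokinase. Their levels were low, between 3.59 and 9.29 FPKM in all groups. Pfkfb3, the form with the highest kinase activity relative to its phosphatase activity, had 6.93, 3.69 and 3.59 FPKM in SR9009 cultures and 9.29, 4.74 and 9.14 FPKM in vehicle cultures. In both arms it was lower at 4 h, and at 48 h it was back near its 0 h level with vehicle but not with SR9009. Pfkfb2, the heart form, had 6.29, 3.94 and 4.71 FPKM in SR9009 cultures and 6.38, 4.89 and 4.63 FPKM in vehicle cultures. Pfkfb4 had 3.78, 3.92 and 4.17 FPKM in SR9009 cultures and 4.85, 3.85 and 5.51 FPKM in vehicle cultures. The SR9009 minus vehicle difference of Pfkfb3 at 48 h was -1.14 (range -1.64 to -0.67). Its share of the 3 forms was then 28.8% (range 20.5% to 38.3%) with SR9009 and 47.4% (range 38.6% to 56.7%) with vehicle.

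Aldolase cleaves the sugar into triose phosphates. Aldoa, the muscle form, had 1316, 2233 and 1847 FPKM in SR9009 cultures and 1359, 1874 and 2041 FPKM in vehicle cultures. It carried the step in every group, with all but 1.16% to 8.35% of aldolase FPKM, and met the rule in no comparison. Aldoc, the brain form, at chr10:65586504-65590093, had 97.5, 31.1 and 168 FPKM in SR9009 cultures and 80.3, 67.2 and 24.0 FPKM in vehicle cultures. Its highest and lowest group were thus both at 48 h, in opposite arms. In SR9009 cultures the difference from 0 h was -1.62 (range -2.05 to -1.18) at 4 h and 0.78 (range 0.35 to 1.21) at 48 h. In vehicle cultures it was -0.25 at 4 h and -1.70 (range -2.12 to -1.28) at 48 h. SR9009 minus vehicle was 0.28 at 0 h, -1.09 (range -1.51 to -0.67) at 4 h and 2.76 (range 2.33 to 3.18) at 48 h, the largest difference between the arms among the 33 genes. The Aldoc share of aldolase FPKM was 8.35% (range 6.29% to 11.0%) at 48 h with SR9009 and 1.16% (range 0.857% to 1.58%) with vehicle.

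Gapdh and Pgk1, the enzymes of the first energy-yielding steps, have no second isoform in the list. Gapdh had 1991, 3305 and 3206 FPKM in SR9009 cultures and 2257, 3469 and 3548 FPKM in vehicle cultures. Its difference from 0 h was 0.73 and 0.69 at 4 and 48 h with SR9009 and 0.62 and 0.65 with vehicle. None met the rule, but all 4 ranges left out 0 in the values as deposited. The summed FPKM of all genes was also higher after PE than at 0 h. It was 612421, 670517 and 656724 at 0, 4 and 48 h with SR9009 and 609018, 699056 and 710198 with vehicle. The Gapdh ranges are not given after rescaling. Pgk1 had 300.2, 369.6 and 463 FPKM in SR9009 cultures and 356, 459.9 and 571 FPKM in vehicle cultures. The GRCr8 annotation names 81 pseudogenes after Gapdh, 31 after Eno1, 30 after Ldha, 19 after Pkm, 13 after Pgam1, 9 after Aldoa and 8 after Pgk1, so reads of these genes could be split with near-identical copies and their levels are uncertain in that respect.

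Phosphoglycerate mutase showed the only opposite responses that met the rule in both arms. Pgam2, the muscle form, at chr14:86045005-86047116, had 57.7, 109.8 and 134 FPKM in SR9009 cultures and 113, 199 and 52.7 FPKM in vehicle cultures. Pgam1, the widely used form, at chr1:261158261-261165808, had 182, 206 and 201 FPKM in SR9009 cultures and 136, 227 and 326 FPKM in vehicle cultures. In both arms Pgam2 was higher at 4 h than at 0 h, by 0.92 with SR9009 and 0.81 with vehicle. At 48 h the arms parted. Pgam2 differed from 0 h by 1.20 (range 0.78 to 1.62) with SR9009 and by -1.08 (range -1.50 to -0.67) with vehicle. The change between the arms was 2.28 (range 1.46 to 3.12). Pgam1 differed by 0.14 with SR9009 and by 1.26 (range 0.83 to 1.69) with vehicle. The change for Pgam1, -1.12, was just short of the rule after rescaling to equal sums or quantile normalization. Pgam2 held 40.0% (range 33.5% to 46.9%) of the mutase FPKM at 48 h in SR9009 cultures and 13.9% (range 10.7% to 17.9%) in vehicle cultures. At 0 h the order of the arms was the other way round, with 24.1% (range 19.0% to 30.0%) in SR9009 cultures and 45.4% (range 38.3% to 52.8%) in vehicle cultures. The summed FPKM of both forms was similar at 48 h, 334 with SR9009 and 379 with vehicle.

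Enolase followed with its own pair. Eno1, the widely used form, at chr5:167288223-167299610, had 577, 834 and 823 FPKM in SR9009 cultures and 591, 792 and 1249 FPKM in vehicle cultures. Eno3, the muscle form, at chr10:57278307-57283659, had 46.6, 65.0 and 160.4 FPKM in SR9009 cultures and 86.2, 127 and 141 FPKM in vehicle cultures. Eno3 was higher at 48 h than at 0 h in both arms, by 1.76 (range 1.34 to 2.19) with SR9009 and by 0.71 with vehicle, where it did not meet the rule. Eno1 differed by 0.51 with SR9009 and by 1.08 (range 0.65 to 1.51) with vehicle, and the vehicle difference was 0.86 after rescaling to equal sums and 0.94 after quantile normalization. The share of Eno3 in enolase FPKM was 7.47% (range 5.65% to 9.80%) at 0 h and 16.3% (range 12.6% to 20.8%) at 48 h with SR9009. In vehicle cultures it was 12.7% and 10.2%. The change of the Eno3 response between the arms, 1.06 (range 0.19 to 1.92), went with an Eno3 difference between the arms of -0.88 at 0 h and 0.18 at 48 h. At 48 h the shares of Eno3 in the 2 arms had overlapping ranges.

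**Figure D2:**
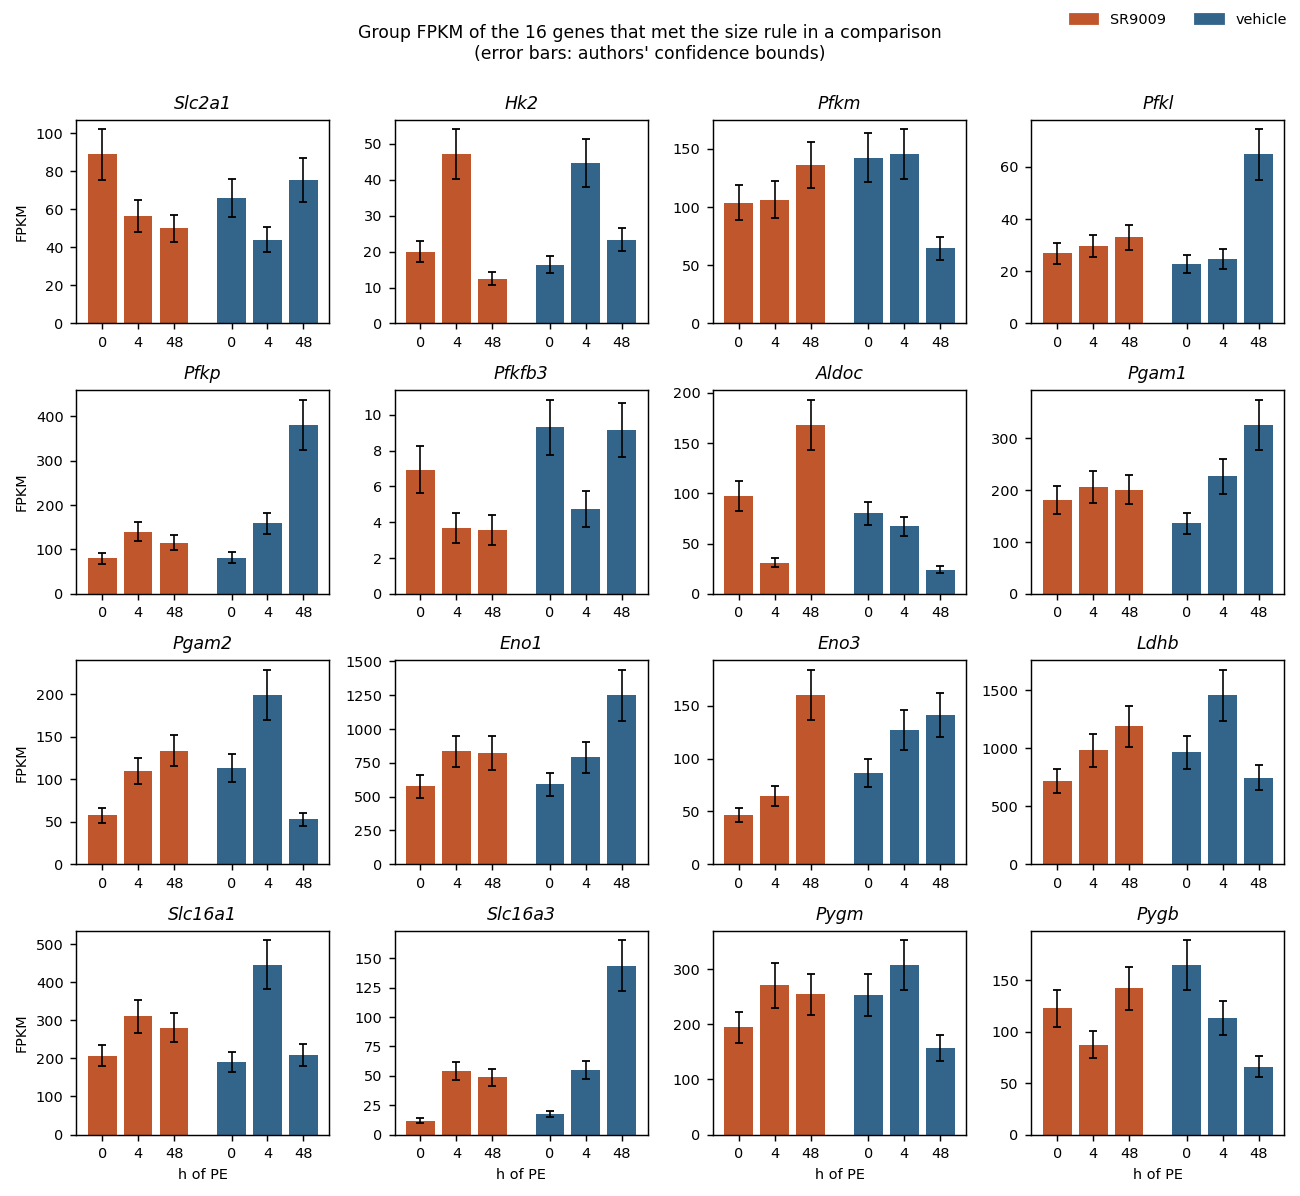
Level of each of the 16 genes that met the size rule in a comparison (panels) in FPKM at 0, 4 and 48 h of PE, in SR9009 cultures and vehicle cultures, with the authors' lower and upper bounds as bars. The vehicle group at 48 h stands apart for Pfkp (380.4 FPKM) and Slc16a3 (144 FPKM), above all other groups. Aldoc was lowest in that group (24.0 FPKM), with bounds that overlap those of the SR9009 group at 4 h.

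Since these isoforms parted between the arms, their promoters are shown for the pairs with the largest changes of the 48 h response: Aldoc and Pgam2, with the higher response in SR9009 cultures, Pfkp and Pfkl, with the lower one, and Pgam1 as the partner of Pgam2. Each is the RefSeq window of GRCr8 from 250 bases before to 50 bases after the start, in the direction of the gene, at chr10:63715294-63715593 (plus strand) for Aldoc, chr14:84897825-84898124 (minus strand) for Pgam2, chr17:68639563-68639862 (plus) for Pfkp, chr20:10663715-10664014 (plus) for Pfkl and chr1:250672902-250673201 (plus) for Pgam1. Capitals mark ACGTG, the core of hypoxia response elements, and GGGCGG, a GC box, on either strand (CACGT and CCGCCC on the other).
Aldoc: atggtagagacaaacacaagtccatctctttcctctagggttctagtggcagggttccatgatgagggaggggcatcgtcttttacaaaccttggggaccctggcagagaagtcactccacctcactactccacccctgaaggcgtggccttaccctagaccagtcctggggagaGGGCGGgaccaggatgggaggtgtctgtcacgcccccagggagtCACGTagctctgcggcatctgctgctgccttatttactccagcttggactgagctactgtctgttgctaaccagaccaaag
Pgam2: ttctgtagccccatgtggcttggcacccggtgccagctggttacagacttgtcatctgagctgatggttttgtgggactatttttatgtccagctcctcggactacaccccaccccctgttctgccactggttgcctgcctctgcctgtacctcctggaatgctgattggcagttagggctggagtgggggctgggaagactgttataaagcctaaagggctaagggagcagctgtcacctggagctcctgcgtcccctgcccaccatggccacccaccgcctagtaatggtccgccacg
Pfkp: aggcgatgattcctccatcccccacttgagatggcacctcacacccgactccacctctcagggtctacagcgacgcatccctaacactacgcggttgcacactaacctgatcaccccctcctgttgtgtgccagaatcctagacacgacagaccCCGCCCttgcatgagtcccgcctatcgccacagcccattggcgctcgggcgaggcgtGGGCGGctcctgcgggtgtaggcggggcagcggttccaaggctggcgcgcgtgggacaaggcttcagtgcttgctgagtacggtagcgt
Pfkl: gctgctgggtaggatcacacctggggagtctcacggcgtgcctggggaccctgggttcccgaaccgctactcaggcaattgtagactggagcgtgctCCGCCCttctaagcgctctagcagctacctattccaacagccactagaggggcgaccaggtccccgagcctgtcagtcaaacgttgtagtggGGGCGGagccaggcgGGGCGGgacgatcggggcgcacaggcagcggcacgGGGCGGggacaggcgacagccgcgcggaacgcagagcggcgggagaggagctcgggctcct
Pgam1: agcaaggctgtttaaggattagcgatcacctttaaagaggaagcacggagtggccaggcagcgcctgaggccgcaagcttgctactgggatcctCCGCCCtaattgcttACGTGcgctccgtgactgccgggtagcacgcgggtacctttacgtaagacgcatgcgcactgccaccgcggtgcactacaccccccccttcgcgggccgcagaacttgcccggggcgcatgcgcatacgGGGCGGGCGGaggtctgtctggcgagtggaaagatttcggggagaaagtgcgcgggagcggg

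The Aldoc window held 1 ACGTG and 1 GGGCGG, Pgam1 held 1 and 3, Pfkp held 0 and 2, Pfkl held 0 and 4, and the Pgam2 window held neither. CACGTG, the E-box bound by clock and MYC family factors, and AGGTCA, the core of the sites bound by nuclear receptors such as REV-ERB, were not among the letters of these 5 windows. Over the 34 windows of 30 matched genes, ACGTG was present in 17 of 34, against 26.0% of 8325 windows of 7920 genes in the table. CACGTG, which contains ACGTG, was present in 11.8% against 9.26%, AGGTCA in 11.8% against 11.6%, and GGGCGG in 58.8% against 63.7%. The median GC content was 61.2% and 61.0%. A match describes letters in this window and not a bound site, and no factor binding was measured.

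Pyruvate kinase (Pkm) had 478, 684 and 615 FPKM in SR9009 cultures and 443, 540.1 and 729 FPKM in vehicle cultures, and met the rule in no comparison. Its muscle and growth-related splice forms come from a single gene and are not resolved in these values. Lactate dehydrogenase interconverts pyruvate and lactate. Ldha, the subunit common in glycolytic tissue, had 1172, 1333 and 1664 FPKM in SR9009 cultures and 1077, 1568 and 1852 FPKM in vehicle cultures. Ldhb, at chr4:176701985-176719891, had 718, 981 and 1189.9 FPKM in SR9009 cultures and 966, 1456 and 748 FPKM in vehicle cultures. Ldha met the rule in no comparison, and its difference from 0 h at 48 h was 0.51 with SR9009 and 0.78 with vehicle. Ldhb at 48 h was above its 0 h level with SR9009 and below it with vehicle. The Ldhb differences were 0.73 (range 0.29 to 1.16) with SR9009 and -0.37 (range -0.80 to 0.07) with vehicle, and the change between the arms was 1.10 (range 0.23 to 1.96). Ldhb held 41.7% (range 34.5% to 49.4%) of lactate dehydrogenase FPKM at 48 h with SR9009 and 28.8% (range 22.9% to 35.5%) with vehicle, ranges that overlap. Within vehicle cultures, the 28.8% at 48 h lay apart from 47.3% (range 39.9% to 54.9%) at 0 h.

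Lactate leaves or enters cells through Slc16a1 (MCT1) and Slc16a3 (MCT4), the low-affinity exporter of glycolytic cells. Slc16a3, at chr10:110139783-110148358, had 11.8, 53.8 and 48.8 FPKM in SR9009 cultures and 17.7, 55.0 and 144 FPKM in vehicle cultures. It was the only gene of the 33 that met the rule after PE at both times and in both arms. At 4 h the differences were 2.09 (range 1.67 to 2.53) with SR9009 and 1.58 (range 1.17 to 2.00) with vehicle. At 48 h they were 1.95 (range 1.52 to 2.39) with SR9009 and 2.95 (range 2.53 to 3.38) with vehicle. Its 48 h level with vehicle stood above all other groups, whereas with SR9009 the 4 and 48 h levels had overlapping bounds. Slc16a1 had 207, 311 and 280.4 FPKM in SR9009 cultures and 191, 446 and 208 FPKM in vehicle cultures. Its 4 h difference was 0.58 (range 0.18 to 0.98) with SR9009 and 1.22 (range 0.81 to 1.63) with vehicle, or 0.92 after quantile normalization, which is short of the rule. Slc16a3 held 14.8% (range 11.5% to 18.8%) of the FPKM of both transporters at 48 h with SR9009 and 40.8% (range 34.0% to 47.9%) with vehicle.

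The pyruvate dehydrogenase kinases switch off the entry of pyruvate into the citric acid cycle. Pdk2 had 93.4, 60.3 and 94.3 FPKM in SR9009 cultures and 101, 60.5 and 51.7 FPKM in vehicle cultures. Pdk1 had 49.8, 45.4 and 43.6 FPKM in SR9009 cultures and 48.2, 52.8 and 59.6 FPKM in vehicle cultures. Pdk3 had 10.3, 9.73 and 14.2 FPKM in SR9009 cultures and 10.1, 11.5 and 18.0 FPKM in vehicle cultures. Pdk2 was lower at 4 h in both arms, and at 48 h it was back at its 0 h level with SR9009 alone. Its 48 h differences were 0.01 with SR9009 and -0.96 (range -1.38 to -0.53) with vehicle, short of the rule, which it met at -1.18 after rescaling to equal sums and at -1.11 after quantile normalization. Pdk2 held 62.0% (range 54.7% to 68.8%) of the FPKM of these 3 kinases at 48 h with SR9009 and 40.0% (range 33.2% to 47.2%) with vehicle. Pdp1, the phosphatase that switches the complex on again, was higher at 4 h by 0.73 with SR9009 and 0.80 with vehicle. It had 42.8, 72.0 and 45.3 FPKM in SR9009 cultures and 40.5, 71.5 and 34.5 FPKM in vehicle cultures.

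Glycogen phosphorylase frees glucose from glycogen. Pygm had 194, 271 and 254 FPKM in SR9009 cultures and 253, 307 and 157 FPKM in vehicle cultures. Pygb, the brain form, at chr3:146582708-146629504, had 123, 87.4 and 142 FPKM in SR9009 cultures and 164, 113 and 66.0 FPKM in vehicle cultures. Here both isoforms were lowest in the vehicle group at 48 h, and their sum was low in that group. Pygm held 61.3%, 75.6% and 64.2% of the FPKM of both in SR9009 cultures and 60.7%, 73.2% and 70.4% in vehicle cultures. The ranges of this share overlapped between the arms at 48 h, and separated between 4 h and 0 h with SR9009. The sum was 396 FPKM at 48 h with SR9009 and 223 FPKM with vehicle. Pygb differed from 0 h by 0.21 with SR9009 and by -1.30 (range -1.73 to -0.88) with vehicle, and Pygm by 0.39 and by -0.69 (range -1.12 to -0.26). The change between the arms was 1.51 (range 0.66 to 2.36) for Pygb and 1.08 (range 0.22 to 1.93) for Pygm. Gys1, which builds glycogen, lay between 59.4 and 81.8 FPKM and met the rule in no comparison.

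In the pentose phosphate branch, which makes NADPH and ribose, Pgd had 84.5, 116 and 77.3 FPKM in SR9009 cultures and 58.7, 59.0 and 108 FPKM in vehicle cultures. SR9009 minus vehicle was 0.52 at 0 h, 0.96 (range 0.53 to 1.40) at 4 h and -0.47 at 48 h, none of which met the rule. Tkt, transketolase, lay between 97.8 and 156 FPKM and met it in no comparison.

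Isoform choice was compared over 11 families, each by the share of an isoform in the summed FPKM of its family. Groups were taken to differ in a family where the ranges of a share, from the authors' bounds, did not overlap. Between 48 h of PE and 0 h, 5 families differed with SR9009, the glucose transporters, hexokinases, phosphoglycerate mutases, enolases and lactate transporters. With vehicle 6 differed, phosphofructokinase, the aldolases, phosphoglycerate mutases, lactate dehydrogenases, lactate transporters and pyruvate dehydrogenase kinases. The largest differences of a share in vehicle cultures were those of Pfkm, -45.1 percentage points, Pfkp, 41.6, Slc16a3, 32.3, and Pgam2, -31.5. In that arm Pfkm, Pgam2 and Ldhb had the lower share after PE, whereas the Eno3 share at 48 h overlapped that at 0 h. Not all muscle forms went down in share. Aldoa had the higher share there, 98.8% against 94.4% at 0 h, and Pygm held 70.4% against 60.7%, with overlapping ranges. With SR9009, Pgam2 and Eno3 had the higher share after PE and the Pfkm share at 48 h, 47.9%, was close to the 49.4% at 0 h. At 4 h, 3 families differed from 0 h with SR9009 and 3 with vehicle, none of them common to both arms. These lists rest on ranges and not on a comparison of the arms: the Pfkp share at 4 h was 50.7% and 48.3%. Those with SR9009 were the aldolases, lactate transporters and glycogen phosphorylases, and those with vehicle were the hexokinases, phosphofructokinase and pyruvate dehydrogenase kinases.

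**Figure D3:**
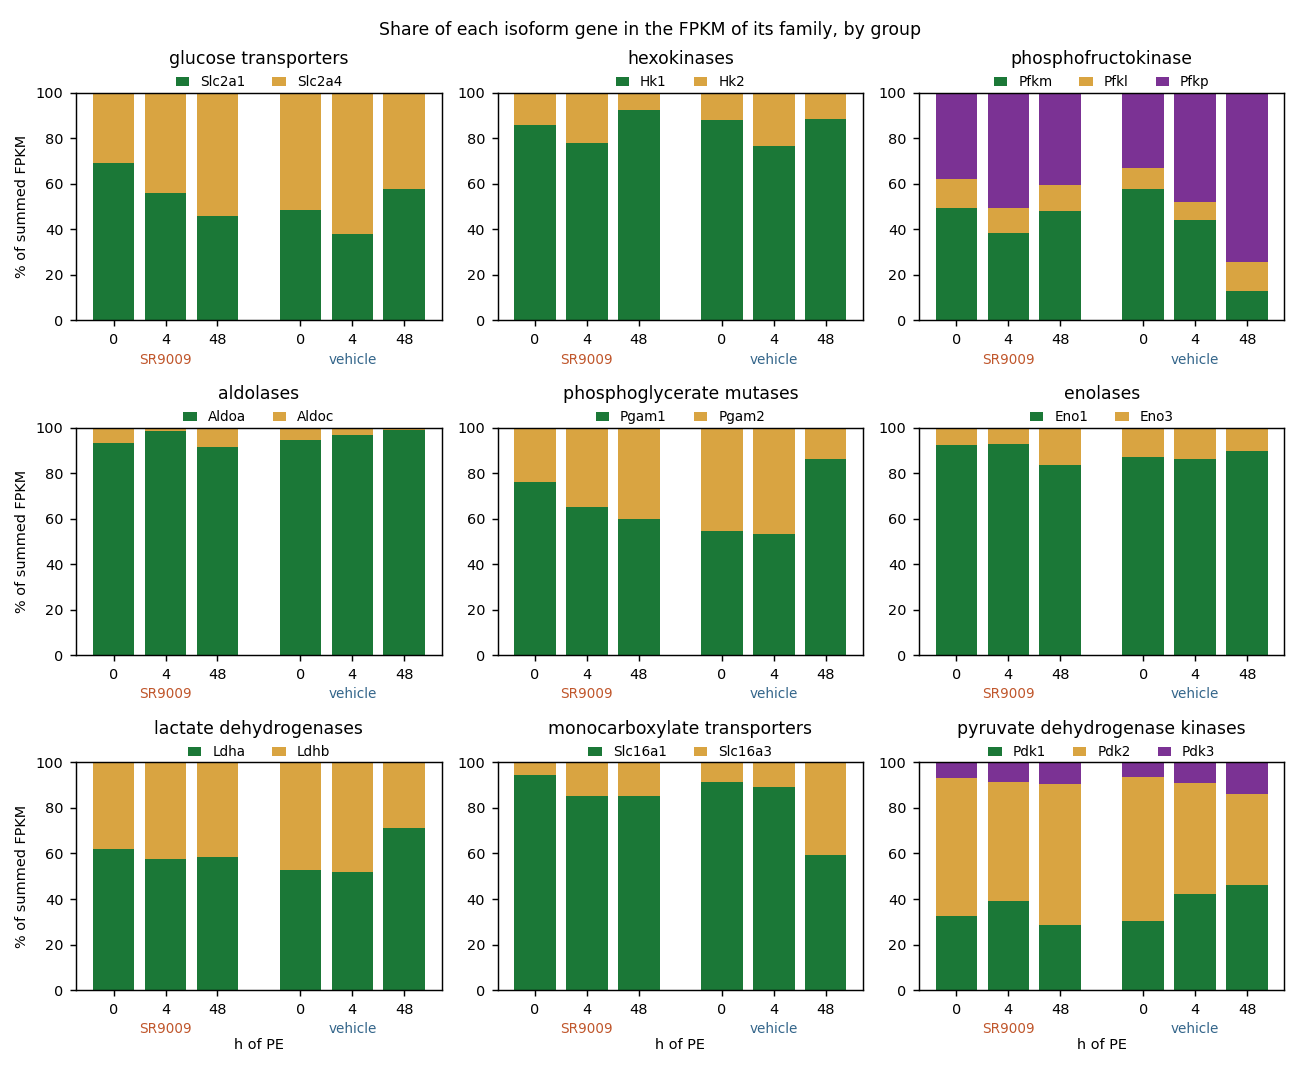
Share of each isoform in the summed FPKM of its family, in percent, for 9 families (panels), for the SR9009 cultures and the vehicle cultures at 0, 4 and 48 h of PE. In the vehicle bar at 48 h Pfkp takes 74.6% of phosphofructokinase and Slc16a3 takes 40.8% of the lactate transporters.

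The arms were also set directly against each other. At 0 h none of the 33 genes met the size rule between SR9009 and vehicle cultures, against 1.07% of all 10415 genes (0.499% higher and 0.566% lower), and the most distant was Pgam2 at -0.96 (range -1.38 to -0.54). Eno3, at -0.88 (range -1.31 to -0.44), and Slc2a4, at -0.79 (range -1.20 to -0.38), also had ranges that left out 0. So did Pfkm, at -0.45 (range -0.88 to -0.03), Slc16a3, at -0.54 (range -0.98 to -0.11), and Pgd, at 0.52 (range 0.10 to 0.94). The median size of the difference at 0 h was 0.246 over the 33 genes and 0.144 over all genes. Shares differed at 0 h for the glucose transporters and phosphoglycerate mutases. At 4 h Aldoc alone met the rule, lower with SR9009, against 1.55% of all genes, 0.499% higher and 1.05% lower. After quantile normalization Aldoc was at -0.99 there and did not meet it, and Pgd, at 1.01, did. At 48 h, 7 genes (21.2%) met it, against 6.89% of all 10408 genes, 2.33% higher and 4.55% lower. Pfkm, Aldoc, Pgam2 and Pygb were higher with SR9009, and Pfkp, Pfkfb3 and Slc16a3 were lower. The differences were 1.07 (range 0.64 to 1.49) for Pfkm, 1.33 (range 0.92 to 1.73) for Pgam2 and 1.09 (range 0.67 to 1.52) for Pygb. They were -1.71 (range -2.14 to -1.28) for Pfkp and -1.54 (range -1.96 to -1.12) for Slc16a3. At 48 h the shares of 6 families differed between the arms, phosphofructokinase, the Pfkfb family, aldolases, phosphoglycerate mutases, lactate transporters and pyruvate dehydrogenase kinases. These 48 h differences and the vehicle responses to PE share the vehicle 48 h group, so they are not separate evidence.

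**Figure D4:**
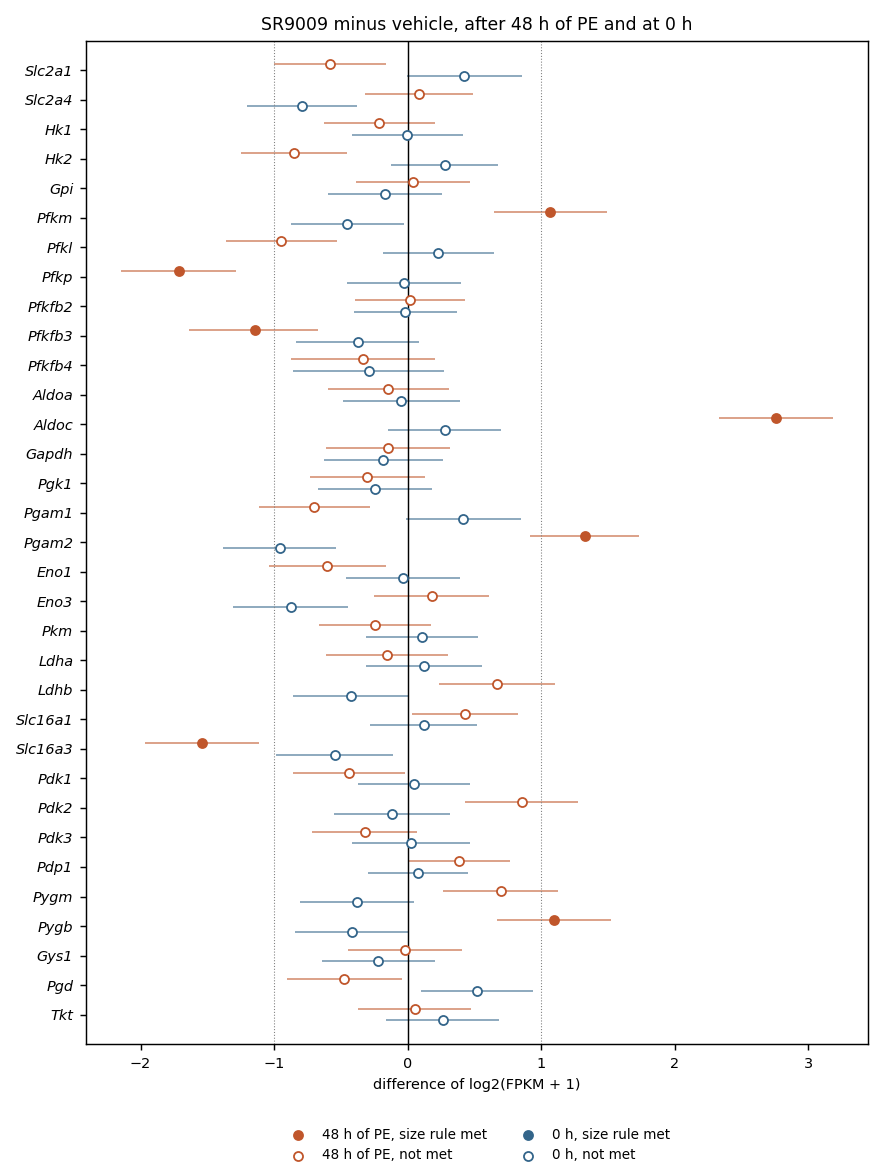
Difference of log2(FPKM + 1) between SR9009 and vehicle cultures for each of the 33 genes (rows), after 48 h of PE and at 0 h. Points are differences, lines the widest range allowed by the authors' bounds, and filled points met the size rule. The 7 filled points are all at 48 h, from Aldoc at 2.76 to Pfkp at -1.71.

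Genes around the pathway were compared by the same rule. At 48 h with vehicle 4.87% of all genes were higher and 3.96% lower, and at 48 h with SR9009 1.26% were higher. At 4 h 2.65% were lower with SR9009 and 2.32% with vehicle. For the change of the response 5.34% were lower. In the lists of this paragraph 1 or 2 genes at most met the rule in a comparison, which is not read as a result about the lists. Of 11 further genes of glucose entry and hexose phosphates with a mean of at least 1 FPKM, Pgm1, which links glycogen and glucose 6-phosphate, was higher by 1.13 at 48 h in vehicle cultures and Gpd1, a glycerol phosphate dehydrogenase, was lower, at -1.14. Slc2a8 was lower at 4 h in the same arm, at -1.13. Among 5 remaining glycolytic and gluconeogenic enzymes, Fbp2, the muscle fructose bisphosphatase, was lower at 48 h with vehicle, at -1.16. Of 12 further glycogen genes, Gyg1, the primer of glycogen, was higher by 1.28 at 48 h with vehicle, and the change of the response between the arms met the rule for Gbe1, at -1.18, and Stbd1, at -1.81. Of 12 genes of pyruvate fate, Pdk4, a kinase that responds to fasting and fatty acids, had 9.78, 4.09 and 12.3 FPKM in SR9009 cultures and 12.2, 3.69 and 7.19 FPKM in vehicle cultures. It was lower at 4 h in both arms, at -1.08 with SR9009 and -1.50 with vehicle. Pdha1, a subunit of pyruvate dehydrogenase, was higher by 1.01 at 48 h with SR9009.

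Several genes of glycolysis are targets of the hypoxia-inducible factors, and 14 other genes known to respond to hypoxia were measured. Egln3, an oxygen sensor that these factors induce, had 36.7, 52.6 and 59.6 FPKM in SR9009 cultures and 55.2, 107 and 164 FPKM in vehicle cultures. Its 48 h difference met the rule with vehicle, at 1.55, while Epas1 and Adm were lower there, at -1.16 and -1.28. That was 1 of the 14 higher and 2 lower, against 4.87% and 3.96% of all genes. At 48 h, 3 of the 14 met the rule between the arms, all lower with SR9009, against 4.55% of all genes: Egln3 at -1.45, P4ha1 at -1.20 and Ankrd37 at -1.87. The median of the 14 was -0.61, against -0.04 over all genes. Of 14 measured genes of glucose and insulin sensing, Irs2, an adaptor of the insulin receptor, had 13.9, 62.2 and 20.3 FPKM in SR9009 cultures and 15.2, 89.6 and 40.2 FPKM in vehicle cultures. Its 4 h difference was 2.08 with SR9009 and 2.48 with vehicle. Myc, a transcription factor known to drive glycolytic genes, had 15.6, 8.31 and 3.38 FPKM in SR9009 cultures and 6.12, 7.20 and 17.6 FPKM in vehicle cultures. The 2 arms ran in opposite directions for Myc, and its SR9009 minus vehicle difference was 1.22 at 0 h and -2.09 at 48 h.

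Markers of myocytes and of other cell types were read in all groups. Over the 8 cardiomyocyte markers with a usable value in every group, FPKM summed to 9302, 14612 and 18191 in SR9009 cultures and to 12921, 17970.2 and 17070.2 in vehicle cultures. Myh6 was left out of these sums, since it had no usable value in 3 groups. At 48 h against 0 h, 4 of 8 compared (Tnnt2, Actn2, Ryr2 and Myl3) met the size rule with SR9009, all higher, and 0 of 8 with vehicle. Over all genes, 1.26% were higher with SR9009 and 4.87% with vehicle. Smooth muscle markers, 9 measured, summed to 1928, 1767 and 2146 FPKM in SR9009 cultures and to 2157, 2732 and 4729.7 FPKM in vehicle cultures. With vehicle 5 of the 9 were higher at 48 h by the rule, against 4.87% of all genes, and 1 lower, and 4 of the 9 were lower with SR9009 than with vehicle at 48 h, against 4.55% of all genes. Des, with 638, 827 and 1281 FPKM in SR9009 cultures and 712, 1215 and 2706 FPKM in vehicle cultures, made up most of the difference of the vehicle sums, and Des and Acta2 are also expressed by neonatal myocytes. Without these 2 genes, left out after their values were seen, the other 7 markers summed to 1061, 659 and 645 FPKM in SR9009 cultures and to 1159, 888 and 1399.5 FPKM in vehicle cultures. By the rule, 3 of the 7 were then higher and 1 lower at 48 h with vehicle, and 2 of the 7 lower with SR9009 than with vehicle. Fibroblast markers, 9 measured with Col1a2 listed at 0 in all groups, summed to 1842, 939 and 1315 FPKM in SR9009 cultures and to 2089, 1221 and 1330.3 FPKM in vehicle cultures. At 48 h, 6 of the 9 were lower than at 0 h with vehicle, against 3.96% of all genes, and 0 of the 9 with SR9009, against 1.16%. Macrophage markers, 7 measured, summed to between 11.4 and 12.9 FPKM with SR9009 and between 19.3 and 29.8 FPKM with vehicle, and endothelial markers summed to between 44.3 and 65.1 FPKM over all groups. Between the arms at 48 h, 1 of 8 cardiomyocyte and 2 of 9 fibroblast markers were higher with SR9009, against 2.33% of all genes. Of the 7 macrophage markers 1 was lower, against 4.55%, and of 7 endothelial markers 0 met the rule. Marker levels also differed between the arms earlier. At 0 h 2 of the 7 macrophage markers were lower with SR9009, against 0.566% of all genes, and at 4 h 4 of the 7, against 1.05%. All 8 cardiomyocyte markers lay lower with SR9009 at 0 h, with a median difference of -0.48, though none met the rule. The change of the 48 h response was higher with SR9009 by the rule for 4 of 8 cardiomyocyte markers, Tnnt2, Tnni3, Ryr2 and Pln. It was higher for 5 of 9 fibroblast markers too, against 3.71% of all genes. Of 9 smooth muscle markers 3 had the lower change, against 5.34%, and 1 the higher. None of the macrophage or endothelial markers met the rule for this change. The lists thus did not all differ between the arms at 48 h, and their part in the results was not tested.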

How the data were processed

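RNA was sequenced as stranded poly(A)-selected libraries, per the labels' protocols, 3 libraries in each of 6 groups. FastQC, Trim Galore, TopHat and Cuffdiff and the rn6 build are named, without versions, in the submitters' processing notes. The deposited table holds the authors' FPKM, scaled to transcript length and library size, as 1 value per gene and group, with a lower and an upper bound whose level is not given in the sources used here. The spread between libraries and the depth are therefore unknown. The model across libraries planned first could not be fitted, and differences of log2(FPKM + 1) with the range allowed by the bounds took its place. Gene starts were read as counted from 0, since gene lengths then equalled those of RefSeq GRCr8 for 1788 genes, against 264 when counted from 1, and are printed counted from 1. Values that the authors' software marked as too deep to estimate (3 to 8 genes per group) were left out of differences and sums, and none was among the 33 genes.

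A gene met the size rule at a difference of at least 1, a 2-fold change, with a range leaving out 0. Genes averaging 1 FPKM or more were compared the same way as background. Left out were those with a value of 0, outside its own bounds or too deep to estimate in a compared group. Of 10545 genes, 10394 to 10418 were thus compared. Members that met the rule, and isoforms of families whose share ranges separated, were described in all groups; other pathway genes were named where they met it, at most 4 per list and comparison. The share of an isoform is its percent of its family's summed FPKM, and its range sets that isoform at one bound and the others at the opposite one. The members and lists were chosen with earlier results of these data known. Scripts (Python 3.11.15, numpy 2.4.6, pandas 2.3.3, matplotlib 3.10.9) were tested on simulated data. Alternatives were a pseudocount of 0.1, a minimum size of 0.58, rescaling to equal sums, median centring and quantile normalization.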

Additional observations from a re-analysis of the deposited data

Results flagged for a closer look

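Pgam2 stood out because its response to 48 h of PE ran in opposite directions in the 2 arms, at 1.20 in SR9009 cultures and at -1.08 in vehicle cultures, both meeting the size rule. The change between the arms was 2.28, with a range of 1.46 to 3.12 from the authors' bounds. With 1 value per group, the difference was not tested.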

How the results depend on the processing

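No paired analysis was possible because the table holds 1 pooled value per gene and group, and leaving out each replicate was not run for the same reason. With a minimum size of 0.58 in place of 1, the counts of the 33 genes that met the rule were 11 and 10 at 4 and 48 h of PE with SR9009 (16.6% and 10.2% of all genes) and 11 and 19 with vehicle (17.3% and 21.9%). Between the arms they were 3, 5 and 15 at 0, 4 and 48 h (4.79%, 7.29% and 18.7%). After quantile normalization 1 gene met the rule between the arms at 0 h (Pgam2, -1.02), and 5 families, not 3, differed in isoform share between 4 h and 0 h with SR9009. After equal sums or median centring 2 genes met it between the arms at 4 h, Pgd being added. Of 38 differences that met the rule, 38 did so with a pseudocount of 0.1, 35 after equal sums, 37 after median centring and 33 after quantile normalization, and none changed sign under these 4. Those lost were Eno1 at 48 h with vehicle, Slc16a1 at 4 h with vehicle, Aldoc between the arms at 4 h, and the Pgam1 and Slc2a1 changes of the 48 h response, each under at least 1 setting. Those gained were Pfkfb3 at 4 h with vehicle, Pdk2 at 48 h with vehicle, Pgam2 between the arms at 0 h and Pgd at 4 h, and the Pdk2, Slc2a4 and Pgd changes of the 48 h response. The cause was not tested. Equal sums moved the median of all genes between 48 h and 0 h from 0.01 to -0.19 with vehicle. Depth is unknown, so what it limits cannot be given.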

Other observations

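Slc16a3 had the widest span of the 33 genes, its highest group at 12.2 times its lowest, followed by Aldoc and then Pfkp, at 4.77 times. Pdk1 and Gys1 had the narrowest, at 1.37 and 1.38 times. Of isoforms outside the list, Pdk4 held 2.9% to 7.5% of the FPKM of the pyruvate dehydrogenase kinases, itself included. Slc2a3 was listed at 0 in all 6 groups, which is not read as a level.

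Mpc2, a subunit of the mitochondrial pyruvate carrier, had 311, 453 and 573 FPKM at 0, 4 and 48 h in SR9009 cultures and 426, 560.0 and 336 FPKM in vehicle cultures, and the change of its 48 h response, 1.22, met the size rule. Ppargc1a, a coactivator of mitochondrial genes, had 16.3, 20.5 and 28.0 FPKM in SR9009 cultures and 26.4, 23.6 and 19.1 FPKM in vehicle cultures, and its change was 1.19. Vegfa and Bnip3, known hypoxia-inducible genes, had changes in the other direction, of -1.09 and -1.22.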
